A study of Gallus gallus with 60 samples.

Results

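Gene expression in the posterior cerebrum was compared between laying hens of the LSL line and the LB line that were kept in compartments of 36 hens. The hens were chosen by their sample labels, which give the line, the group size and a hen number, and 28 of the 60 hens of the series came from compartments of 36, with 13 of the LSL line (Lohmann Selected Leghorn) and 15 of the LB line (Lohmann Brown). All hens were 65 to 67 weeks old and were floor-reared before they were moved into a small group housing system. They received no experimental treatment, but the methods state that layers were vaccinated by a common scheme in rearing and laying. Each hen was measured on 1 Affymetrix chicken array with 38535 probe sets, which are groups of short probes against 1 transcript. The remaining 32 hens, 15 LSL and 17 LB of the same age and housing, came from compartments of 54 and are used here only for comparison.

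The lines were never mixed within a compartment and several hens were sampled from each. Which compartment and tier a hen came from was not analysed here. Hens were therefore treated as independent, and the standard errors (SE) may be too small where hens of 1 compartment resemble each other. The methods state that hens were judged as stressed or unstressed when they were picked, and this status was not analysed here. The left side of the cerebrum was sampled in 1 LSL and 2 LB hens and the right side in the others.

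LSL hens lay white eggs and LB hens lay brown eggs, and both come from commercial selection for egg number. The cerebrum of birds holds the pallium and striatum, which process sensory input and control learned behaviour. A line difference in a probe set can come from a different amount of transcript, or from a base difference under the probes, because short probes bind less well to a transcript that they do not match. Which of these applied was not tested. In whole tissue, fewer cells of a type and less RNA per cell cannot be told apart.

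The deposited values are log2 values that were centred for each probe set at a median of 0 in hens 1 to 30 and separately in hens 31 to 60. The values thus hold differences between hens and no levels, so that the tissue could not be checked by the level of its markers. Values of single hens are given below relative to the mean of the LB hens of compartments of 36 in the same set of arrays. A line difference is LSL minus LB on the log2 scale, from limma with a block for the set of arrays, and was called at a Benjamini-Hochberg adjusted p below 0.05 over all probe sets. Whether a hen lies above or below all hens of the other line is counted within its set of arrays. The sets held 7 and 6 LSL hens and 8 and 7 LB hens. The difference between the probe sets at both ends of beta-actin, a sign of RNA integrity, ran from -0.37 to 0.18 in LSL and from -0.76 to 0.24 in LB. As the values are centred, it compares hens with each other and gives no level of integrity. LB hens 10 (-0.76) and 26 (-0.50) were the lowest, and a part of integrity in the line differences was not tested. None of 96 control and 57 reporter probe sets was called.

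The largest line difference was in SRI, which encodes sorcin, a soluble calcium-binding protein. The LSL hens ran from 5.09 over a median of 6.13 to 7.39, and the LB hens from -1.93 over -0.67 to 3.64. All 13 LSL hens lay above all 15 LB hens, and the difference was 6.02 ± 0.55 (SE, adjusted p = 5.57e-09), or 65.0-fold. The LB hens were not 1 cloud of values. Among hens 1 to 30, 5 LB hens lay between -1.93 and -1.46 and 3 lay between 2.59 and 3.08. Among hens 31 to 60, 6 LB hens lay between -0.76 and -0.41 and 1 lay at 3.64. The steps of 4.06 and 4.05 separated LB hens 3, 4, 10 and 39 from the other LB hens, while no LSL hen came near the lower LB level. The other SRI probe sets differed by -0.08 and -0.02 and were not called.

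SUCLG2, which encodes part of the succinyl-CoA ligase of the citric acid cycle, had the next largest difference of a named gene at 3.88 ± 0.31 (adjusted p = 4.16e-10). The LSL hens ran from 3.33 over 3.73 to 4.44 and the LB hens from -0.94 over -0.20 to 3.99. A single LB hen, number 26, lay at 3.99 within the LSL range, and the other 14 LB hens lay below every LSL hen. The remaining SUCLG2 probe sets pointed the other way at -0.83, -0.23 and -0.22, all called. The gene thus had probe sets called in both directions, and its direction was not settled by the array.

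RAB22A encodes a small GTPase of early endosomes and was higher in LSL by 3.69 ± 0.42 (adjusted p = 3.78e-07). The LSL hens were tightly grouped, from 3.12 over 3.77 to 4.08, and the LB hens were spread from -1.77 over -0.93 to 2.75. Here again LB hens fell into separate levels, with hens 2, 10, 26, 34, 36 and 48 at 1.05 to 2.75 and the others at -0.80 or below. Another RAB22A probe set was also higher, by 2.05 ± 0.20, and the last differed by 0.08 (adjusted p = 0.245).

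The largest difference in the other direction was in SLC4A1AP, which encodes kanadaptin, with -3.22 ± 0.29 (adjusted p = 3.63e-09). The LSL hens ran from -3.87 over -3.22 to -2.66 and the LB hens from -3.22 over 0.07 to 0.97. Only LB hen 2, at -3.22, lay among the LSL hens. The 4 other probe sets of the gene differed by -0.04 to 0.06.

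BG8 encodes a butyrophilin-like protein of the chicken major histocompatibility complex (MHC) and was lower in LSL by a difference of -2.92 ± 0.43 (adjusted p = 2.23e-05). The LSL hens ran from -4.66 over -3.73 to -0.34 and the LB hens from -0.98 over -0.03 to 1.07. In this gene it was the LSL line that held separate levels, with hens 21, 27, 28 and 49 in the LB range and the other 9 below all LB hens. The BG genes form a family of near-identical copies, so a probe set may take up transcript of more than 1 of them. Among the further BG8 probe sets, differences of -0.53 and -0.24 were called and 7 were not.

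ASPH, a locus that encodes aspartate beta-hydroxylase and the calcium store proteins junctin and junctate, was lower in LSL in a pair of probe sets, at -2.23 ± 0.56 (adjusted p = 0.00835) and -2.18 ± 0.56 (adjusted p = 0.0106). In the former the LSL hens ran from -6.36 over -1.11 to -0.81 and the LB hens from -0.21 over -0.03 to 0.35. All 13 LSL hens lay below all LB hens, but the size of the difference rested on 3 of them. LSL hens 1, 19 and 40 lay at -6.36 to -6.23, 5.03 or more below the other LSL hens of their set, and the same hens stood apart in the other probe set. A further ASPH probe set was higher in LSL by 0.78 ± 0.08, 1 was lower by a difference of -0.34, and 4 were not called.

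**Figure D1:**
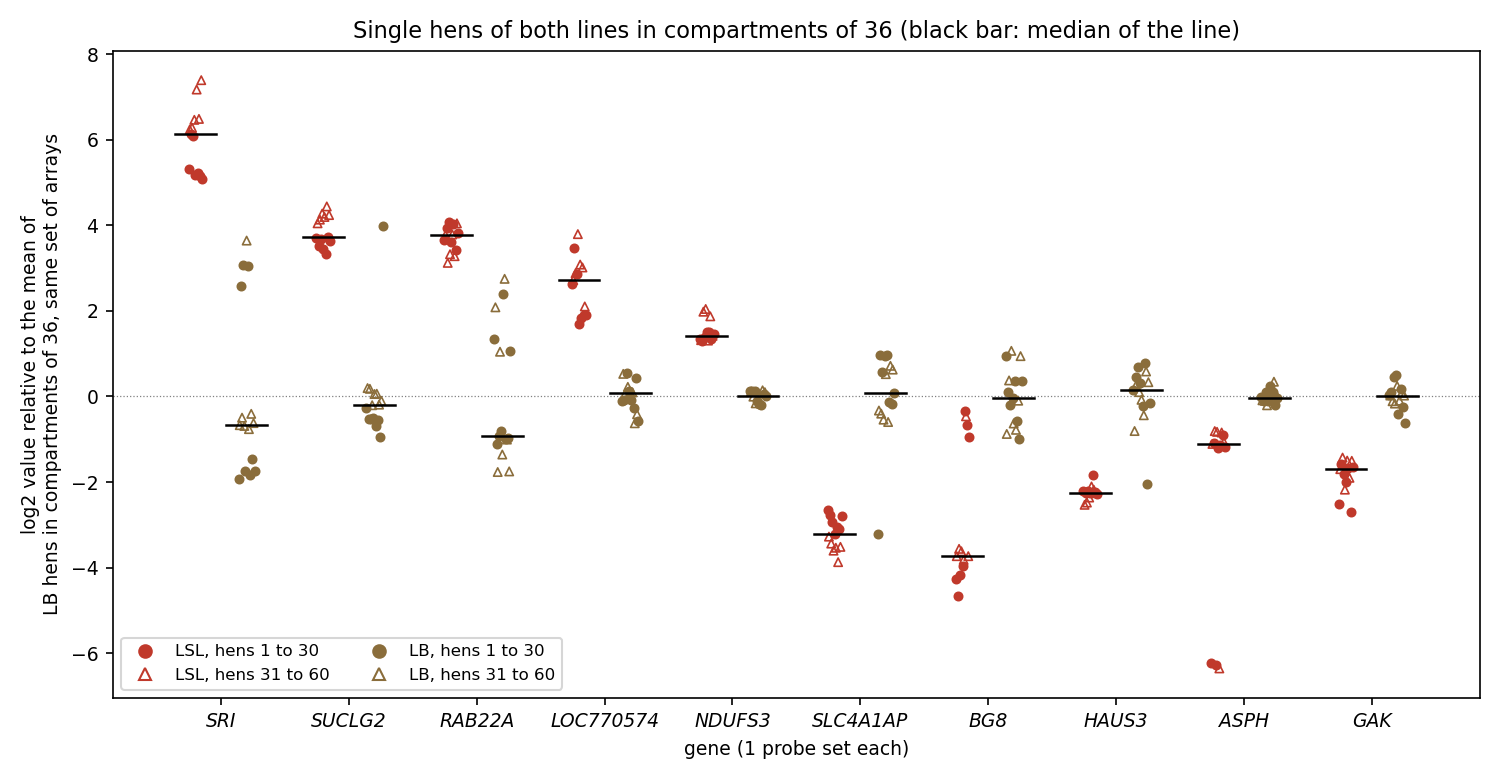
Log2 values of the 13 LSL and 15 LB hens of compartments of 36 for 10 genes (1 probe set each), relative to the mean of the LB hens in the same set of arrays; filled circles are hens 1 to 30, open triangles are hens 31 to 60, and black bars are medians. SRI, RAB22A, SUCLG2 and SLC4A1AP show LB hens apart from the rest of their line, and BG8 and ASPH show LSL hens apart from theirs. In NDUFS3 and GAK the lines form separate clouds.

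Some genes separated the lines with no overlap, some of them with little spread. NDUFS3, a core subunit of respiratory complex I, ran from 1.30 over 1.42 to 2.04 in LSL and from -0.19 over 0.01 to 0.14 in LB, a difference of 1.52 ± 0.07 (adjusted p = 2.73e-15). AKR7A2, an aldo-keto reductase that reduces reactive aldehydes, ran from 0.95 over 1.08 to 1.30 in LSL and from -0.13 over -0.03 to 0.17 in LB, with 1.11 ± 0.04 (adjusted p = 2.56e-17). Both left a gap between the lowest LSL and the highest LB hen that was wider than the whole LB range. KCNA2, a voltage-gated potassium channel of axons, was higher by 1.57 ± 0.12, with LSL at 0.81 to 2.11 and LB at -0.34 to 0.29. PQLC3 was higher in 2 probe sets, by 1.58 ± 0.07 and 1.10 ± 0.05, and not called in another (0.08). The gene LOC770574, which carries no descriptive name, was higher by 2.61 ± 0.18, from 1.70 to 3.80 in LSL against -0.63 to 0.55 in LB.

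Lines without overlap were found in the lower direction as well, though not in HAUS3. GAK, a kinase that takes part in uncoating clathrin vesicles, ran from -2.70 over -1.70 to -1.43 in LSL and from -0.63 over 0.02 to 0.50 in LB, with a difference of -1.86 ± 0.12 (adjusted p = 8.66e-12). The 3 other GAK probe sets were not called (0.02 to 0.19). RNF207, a RING finger protein, differed by -1.95 ± 0.11 (adjusted p = 2.56e-13) and was lower in its other probe sets too (-0.88 and -0.25). ZNHIT3, a zinc finger protein, differed by -1.84 ± 0.13, but another of its probe sets was higher by 0.28. HAUS3, a subunit of the augmin complex of the mitotic spindle, differed by -2.24 ± 0.19, with LB hen 18 at -2.05 among the LSL hens.

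Over all probe sets, 201 (0.522 percent of 38535) did not overlap between the lines in either set of arrays, 91 of them higher and 110 lower in LSL. Of these, 60 were also called at 2-fold or more.

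In total, 3581 probe sets (9.29 percent) were called between the lines in compartments of 36, with 1493 higher in LSL (3.87 percent) and 2088 lower (5.42 percent). Few of these differences were large: the median size was 0.28, and 2944 lay below 0.5. A difference of 2-fold or more was found for 155 probe sets (0.402 percent), 72 higher and 83 lower. Of the 155, 114 carried 1 gene symbol, which gave 101 genes. The annotation gave no symbol for 39 and several symbols for 2.

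Those 101 genes were often represented by further probe sets that did not follow. For 76 of them the array held 191 further probe sets, of which 40 were called in the same direction, 16 in the opposite direction and 135 not at all. SBDS, which encodes a ribosome maturation factor, is an example. It was higher by 1.85 ± 0.17 in 1 probe set and lower in the other (-0.14, adjusted p = 0.0047). RFX3, a transcription factor of ciliated cells, was higher by 1.91 ± 0.16 in 1 probe set and not called in another (0.09).

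Separate levels within a line were common among the large differences. A step of at least 1 log2 unit between neighbouring hens of 1 line within a set of arrays was present in 70 of the 155 probe sets (45.2 percent), against 713 of all 38535 (1.85 percent). It was present in LSL for 42 and in LB for 40. Large differences leave more room for such steps, so both shares are a description. In 24 of the 155 probe sets no hen lay beyond the midpoint between the line means, in 62 it was 1 or 2 hens, and in 69 it was 3 or more, with at most 9. A single LSL hen lay on the LB side in 6 to 22 of the 155 probe sets (median 14), and a single LB hen on the LSL side in 5 to 25 (median 15).

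Further genes with large differences show how much the line distributions varied. ARL2BP, whose protein binds the GTPase ARL2, was higher by 2.38 ± 0.34, although LSL hen 49 at -1.03 lay below all LB hens, and its 3 other probe sets were not called (-0.07 to 0.42). UMPS, the enzyme that completes pyrimidine synthesis, was higher by 1.98 ± 0.25, and again LSL hen 49, at -0.49, lay below the LB hens of its set while the other 12 LSL hens lay above theirs. Its other probe set (0.08) was not called. TMEM164 was higher by 2.06 ± 0.22 with all 13 LSL hens above the LB hens of their set, and its other probe sets (0.20 and 0.01) were not called. LOC770705 was higher by 1.89 ± 0.28, with LSL hens 21, 27 and 28 at -0.32 to 0.15 and the other LSL hens of their set at 2.17 to 3.08. Its other probe set, at -0.60, was not called. LSL hens 21, 27 and 28 were the same ones that lay near the LB hens in BG8.

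Among the lower genes, ABCB1 encodes P-glycoprotein, an efflux pump of the blood-brain barrier. It ran from -3.98 over -1.44 to -0.85 in LSL and from -0.60 over -0.02 to 0.66 in LB, with -1.88 ± 0.27 (adjusted p = 1.28e-05). All 13 LSL hens lay below the LB hens, and hens 40 and 55 were the lowest of them. Another ABCB1 probe set was lower too (-1.31 ± 0.21). FAM171A1 was lower in 2 probe sets (-2.25 ± 0.18 and -0.84), and LYG2, a goose-type lysozyme, differed by -1.91 ± 0.27. MYBPC2, a myosin-binding protein of fast skeletal muscle, differed by -1.79 ± 0.24, and RTKN2 by -1.54 ± 0.16, with 2 further RTKN2 probe sets not called (-0.04 and -0.00).

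Genes with a role in calcium handling were examined as a list of 31 measured genes. For all lists, each gene was represented by its probe set with the largest spread between hens of a line, and over all 13009 genes of the array 640 (4.92 percent) were higher in LSL and 926 (7.12 percent) lower, with a median difference of -0.006. The counts of a list refer to these probe sets, and further probe sets of a member may differ. Of the 31 calcium genes, 2 were higher (SRI, and the store chaperone CALR by 0.79 ± 0.09) and 3 lower, with a median of -0.01. The lower ones were ASPH, ORAI1 and PVALB. ORAI1, the pore of the store-operated calcium channel of the plasma membrane, ran from -1.32 over -1.03 to -0.81 in LSL and from -0.72 over -0.07 to 0.51 in LB, a difference of -1.08 ± 0.11 (adjusted p = 4.11e-08), with no overlap. PVALB, a cytosolic calcium buffer of fast-firing neurons, differed by -0.40. The store sensor STIM1 (-0.11), the release channel ITPR1 (-0.13) and the pump ATP2A2 (0.05) were not called. When genes were represented by the probe set that varied most among the 28 hens, line difference included, 5 calcium genes were lower instead of 3, with ATP2B2 (-0.62), a calcium pump of the plasma membrane, and RYR2 (-0.53), a release channel, called in further probe sets.

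In the list of mitochondrial respiration and the citric acid cycle, 3 of 41 genes were higher and 3 lower, with a median of -0.005. NDUFS3 and COX5A (0.43) were higher, as was the chosen probe set of SUCLG2, whose other probe sets were lower. PDK1, a kinase that blocks entry of pyruvate into the cycle, was lower (-1.01), as were COX6A1 (-0.23) and NDUFA10 (-0.18). SDHA, a subunit of succinate dehydrogenase, differed by 0.03 and was not called.

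For endosomes and the retromer, which sorts membrane proteins back from endosomes, 2 of 37 genes were higher and 4 lower, with a median of -0.03. RAB22A and the vesicle-pinching dynamin DNM1 (0.18) were higher. GAK, VPS26B (-1.65 ± 0.26), VPS29 (-0.46) and EHD4 (-0.35) were lower. VPS26B and VPS29 are subunits of the same retromer core, and the core subunit VPS35 differed by 0.05 and was not called. In VPS26B the LSL hens ran from -2.62 over -1.57 to -0.39 and the LB hens from -1.98 over 0.30 to 0.87. The lines thus overlapped, and 9 of 13 LSL hens lay below all LB hens of their set of arrays.

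Synaptic vesicle release had 1 of 23 genes higher and 2 lower, with a median of -0.05. The lower ones were calcium sensors of vesicle fusion. SYT1 was lower in 3 probe sets, by differences between -1.04 and -0.80, and SYT9 in 2 (-1.54 ± 0.22 and -1.37 ± 0.23). In SYT9, LSL hens 31 and 55 lay apart from the other LSL hens of their set, near the LB range. The vesicle protein SV2B was higher by 0.28 (adjusted p = 0.0445, and 0.0624 without LSL hen 1), and SNAP25 (-0.05) and STX1A (0.03) of the fusion machinery were not called. Of 33 potassium channel genes, KCNA2 and KCNH1 (0.55) were higher and none lower, with a median of -0.005, and KCNA1 differed by 0.05. Further probe sets of KCNAB2, a channel subunit, were called in both directions (0.14 and -0.21), and 1 of KCNK2 was higher (0.32). Of 24 glutamate and GABA receptor genes, GRM5 was higher (0.39, adjusted p = 0.0445, and 0.0703 without LSL hen 1) and GRIK1 lower (-0.64). The NMDA receptor subunit GRIN1 differed by -0.01.

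Immune recognition differed at several points. In the list of MHC class I and peptide loading, 4 of 12 genes were higher in LSL and none lower, with a median of 0.04. BF2, the main class I molecule of the chicken, ran from 0.53 over 1.60 to 3.18 in LSL and from -0.89 over -0.29 to 1.16 in LB, with 1.58 ± 0.25 (adjusted p = 4.09e-05). The lines overlapped, with 10 of 13 LSL hens above all LB hens of their set. The 3 other probe sets with BF2 as their only symbol were not called. Among probe sets that the annotation gives to both BF1 and BF2, differences of 1.52 (adjusted p = 1.95e-05) and 1.16 (adjusted p = 0.00232) were called. MHCY4, a class I-like gene of the Y locus, was higher by 1.27 ± 0.21, CALR, which helps to fold class I molecules, by 0.79 ± 0.09, and the peptide-trimming enzyme ERAP1 by 0.27. The shared light chain B2M (-0.04) and the peptide transporter TAP1 (0.03) were not called. Class I genes are highly variable in sequence between chickens and near-identical to each other, so these probe sets may match copies unequally.

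In the list of MHC class II genes and the RFX and CREB factors, 2 of 18 were higher and 2 lower (median -0.02). RFX3 and CREB1 (0.97 ± 0.10, with 3 other CREB1 probe sets not called) were higher. DMA (-0.48) and DMB2 (-0.26), which encode parts of the class II peptide exchange factor, were lower. The class II regulator CIITA (0.04) and the invariant chain CD74 (-0.01) were not called. Among 18 interferon-induced genes, 4 were lower and none higher, and the median was -0.13. IFIT5, which binds foreign RNA, had the largest difference at -0.84 ± 0.23 (adjusted p = 0.0193), followed by the RNA-activated kinase EIF2AK2 (-0.32), the interferon regulator IRF7 (-0.24, adjusted p = 0.0495, and 0.0811 without LSL hen 1) and IFI35 (-0.20). The other IFIT5 probe set was not called. In compartments of 54, IFIT5 differed by -0.13 (adjusted p = 0.776), while EIF2AK2, IRF7 and IFI35 were called lower there as well. MX1, an antiviral GTPase, differed by -0.18 and was not called.

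**Figure D2:**
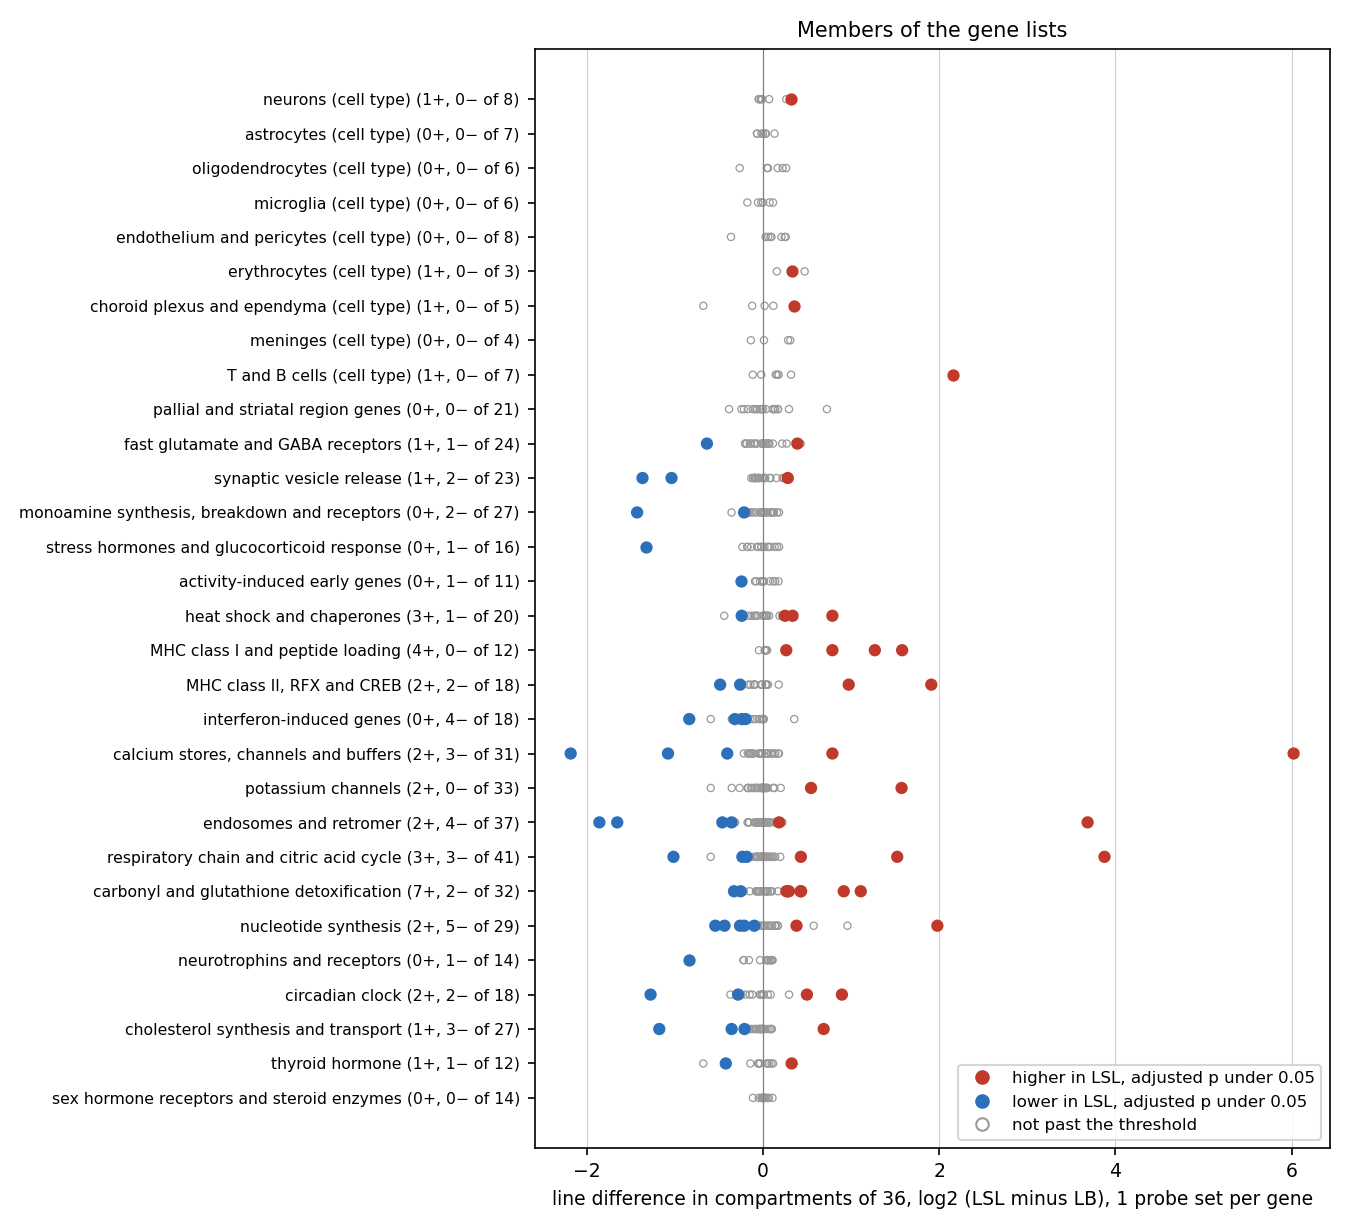
Line difference in compartments of 36 (LSL minus LB, log2) for the measured members of 30 gene lists, 1 probe set per gene; red points were called higher in LSL, blue points lower, and open points were not called. Few members of a list lie far from 0, such as SRI, ASPH and ORAI1 among the calcium genes and RAB22A, GAK and VPS26B among the endosome genes.

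Detoxification of carbonyls and the glutathione system had 7 of 32 genes higher and 2 lower, with a median of 0.03. The higher ones were AKR7A2, the carbonyl reductase CBR3 (0.92 ± 0.10), the peroxidase GPX8 (0.43), the glutathione transferases GSTM2 (0.43) and GSTA2, the aldo-keto reductase AKR1B10 and the glutathione synthetase GSS. The lower ones were MGST2 (-0.33) and ALDH7A1 (-0.25), and NQO1 was not called. In nucleotide synthesis, 2 of 29 genes were higher (UMPS, and UPP1 by 0.38) and 5 lower (median 0.02). RRM2 (-0.54), a subunit of ribonucleotide reductase, and HPRT1 (-0.44) and PPAT (-0.26) of purine metabolism were lower, with UCK1 and CTPS1. Cholesterol synthesis and transport had 1 of 27 genes higher and 3 lower (median -0.03). PMVK was higher (0.69), and LCAT (-1.18 ± 0.16), which esterifies cholesterol in lipoproteins, CYP46A1 (-0.35), which clears cholesterol from neurons, and SQLE (-0.21) were lower.

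Stress and arousal systems differed in few members. Of 16 genes of stress hormones and the glucocorticoid response, the glucocorticoid-induced kinase SGK1 was called, and MC4R, a melanocortin receptor, was higher in a further probe set (0.16). SGK1 ran from -2.26 over -1.33 to -0.57 in LSL and from -1.31 over 0.13 to 0.99 in LB. The difference was -1.32 ± 0.22 (adjusted p = 1.12e-04), and the other SGK1 probe set differed by -0.05. LB hens 2, 11 and 26 lay at -1.31 to -1.06, within the LSL range. The glucocorticoid receptor NR3C1 (-0.02), its co-chaperone FKBP5 (-0.17) and the releasing hormone CRH (0.18) were not called. Of 27 monoamine genes, COMTD1 and the vesicular transporter SLC18A2 (-0.21) were lower. COMTD1, a methyltransferase-domain gene related to catechol-O-methyltransferase, ran from -2.08 over -1.58 to -0.49 in LSL and from -0.37 over -0.03 to 0.41 in LB, with -1.43 ± 0.14 (adjusted p = 1.9e-08). The synthesis enzymes TH (0.09) and TPH2 (-0.36, adjusted p = 0.0656) and the breakdown enzyme MAOA (0.13) were not called.

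In the circadian clock, 2 of 18 genes were higher and 2 lower, with a median of -0.08. NFIL3 (0.90 ± 0.10) and ARNTL2 (0.50) were higher, and the clock kinase CSNK1E (-1.27 ± 0.39, adjusted p = 0.0351) and CLOCK (-0.28) lower. PER2 (0.09) and CRY1 (-0.15) were not called. The call of CSNK1E was lost without LSL hen 1 (-1.12, adjusted p = 0.0663) and without LB hen 54 (-1.19, adjusted p = 0.0566). Of 14 neurotrophin genes only NTRK3, the receptor of neurotrophin-3, was called (-0.84 ± 0.10), and BDNF (-0.03) and NTRK2 (-0.22) were not. Thyroid hormone genes had 1 of 12 higher (DIO2, 0.33) and 1 lower (SLC16A10, -0.42), with the receptor THRA at 0.12. Of 11 activity-induced early genes only ATF3 was called (-0.24), with FOS at -0.01 and EGR1 at -0.07. Among 20 heat shock genes and chaperones, CALR, DNAJB9 (0.34) and HSPA5 (0.25) were higher, DNAJB6 was lower (-0.24), and HSPA8 differed by -0.00. None of 21 genes of pallial and striatal regions and none of 14 genes of sex hormone receptors and steroid enzymes was called, with the oestrogen receptor ESR1 at 0.01.

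Markers of cell types were mostly not called. By 1 probe set per gene, none of 7 astrocyte, 6 oligodendrocyte, 6 microglia, 8 endothelium and pericyte and 4 meninges markers passed the threshold. Further probe sets of the endothelial adhesion molecule PECAM1 were lower (-0.51 and -0.28), and those of the myelin protein MBP (0.18) and the collagen COL1A2 (0.13) were higher. NEFM (0.32) was the only one called of 8 neuron markers, RSPH1 (0.36) of 5 markers of choroid plexus and ependyma, and SLC4A1 (0.33) of 3 markers of erythrocytes. The mean of the erythrocyte markers ran from -0.11 over 0.22 to 1.67 in LSL and from -0.19 over 0.00 to 0.31 in LB, and that of the meninges markers from -0.91 over -0.04 to 2.27 and from -0.74 over -0.21 to 1.19. The calls of NEFM and RSPH1 were lost without LSL hen 1 (adjusted p = 0.0535 and 0.0626). Single hens thus differed in these markers, and their part in the line differences was not tested.

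Antibody genes were higher in LSL in compartments of 36. JCHAIN encodes the chain that joins polymeric immunoglobulins and was the only one called of 7 T and B cell markers. It ran from -0.99 over 2.28 to 3.95 in LSL and from -2.89 over 0.19 to 2.17 in LB, with 2.15 ± 0.50 (adjusted p = 0.00435). The lines overlapped, with 8 of 13 LSL hens above all LB hens of their set. The immunoglobulin light chain, which the annotation names IGLL1, was higher in 5 of its 8 probe sets by 1.74 to 1.87 (adjusted p from 0.00189 to 0.00768). In the one with the largest difference, 1.87 ± 0.42, the LSL hens ran from -0.81 over 1.52 to 3.82 and the LB hens from -1.51 over -0.00 to 2.02. LSL hen 1 was the lowest of its line in both genes. The 3 other IGLL1 probe sets differed by 0.10, 0.04 and -0.00. The 5 probe sets may match the same transcripts and are not separate evidence. The mean of the 6 other T and B cell markers ran from -0.11 over 0.05 to 0.72 in LSL and from -0.32 over -0.01 to 0.25 in LB. Within hens 1 to 30 alone and hens 31 to 60 alone, JCHAIN differed by 2.24 (adjusted p = 0.133) and 2.05 (adjusted p = 0.0572).

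The same lines in compartments of 54 share no hen with the comparison above. There, 5718 probe sets (14.8 percent) were called, 158 of them at 2-fold or more (0.410 percent). Of the 3581 probe sets called in compartments of 36, 2134 were called in the same direction in compartments of 54, which was 59.6 percent of the former and 37.3 percent of the latter, and none was called in the opposite direction. The sign was the same for 93.0 percent of the probe sets called in compartments of 36, against 57.4 percent of all probe sets. Of the 155 probe sets of 2-fold or more, 154 had the same sign, 140 were called and 108 again reached 2-fold, and the median ratio of the difference in compartments of 54 to that in 36 was 0.94. SRI differed by 5.78, SUCLG2 by 2.95, SLC4A1AP by -3.19, BG8 by -3.21 and NDUFS3 by 1.71 in compartments of 54.

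**Figure D3:**
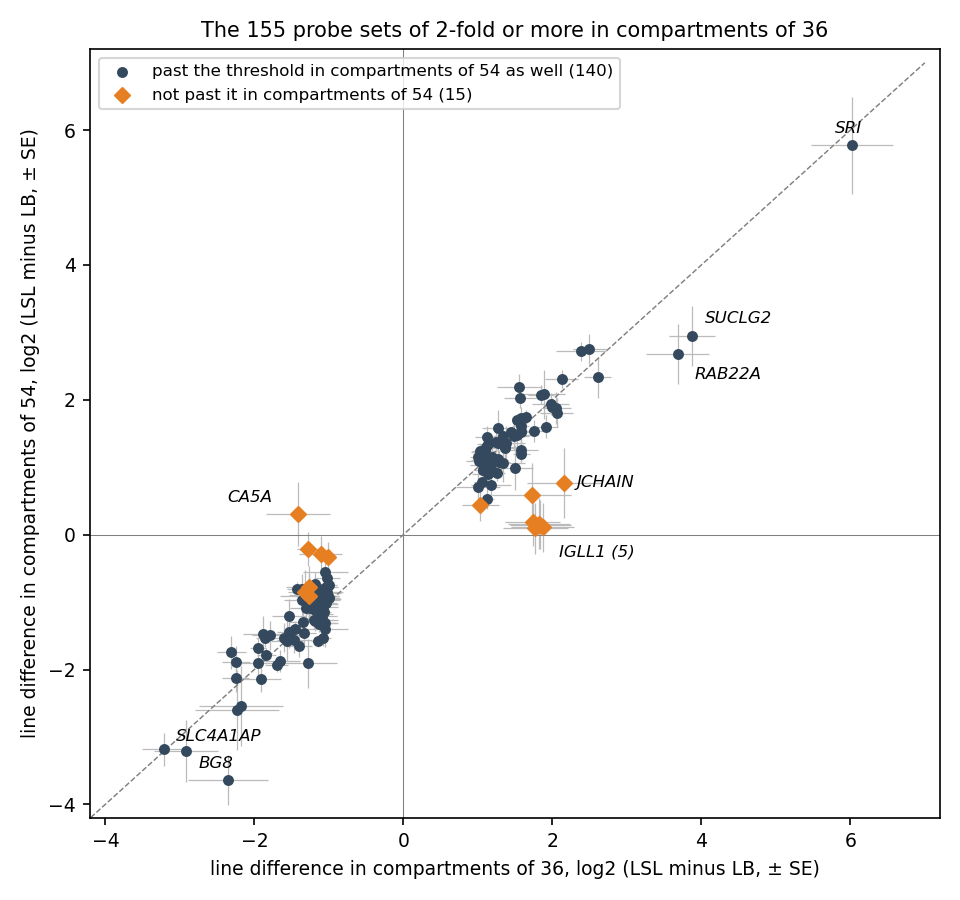
Line difference (LSL minus LB, log2) in compartments of 36 against that in compartments of 54 for the 155 probe sets of 2-fold or more in compartments of 36, with bars of 1 SE and a dashed line of equality. Of these, 140 were called in compartments of 54 as well (dark points) and 15 were not (orange), among them JCHAIN, 5 probe sets of IGLL1, and CA5A, the only one of opposite sign.

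Whether the line difference itself changed with group size was tested as an interaction over all 60 hens. No probe set passed (0 percent), the smallest adjusted p from limma was 0.233, and 4975 probe sets (12.9 percent) had an unadjusted p below 0.05. This share is larger than that threshold gives on average where no difference exists. The absence of calls thus does not show that the line differences were equal. Without LB hens 7, 8 and 16 of compartments of 54, whose arrays had stood apart in earlier results, 3523 lay below it and none passed. The median SE of the interaction was 0.08. Each of the 10 named genes with the smallest p for the interaction had an adjusted p of 0.233. Among them KLHL7 differed between the lines by -0.40 in compartments of 36 and by 0.05 in compartments of 54 (4 further KLHL7 probe sets were not called in compartments of 36), ATP5C1, a subunit of the mitochondrial ATP synthase, by 0.08 and 0.44, and SSPO by 0.13 and -0.07. The others were CHEK1 (0.11 and -0.24), DSCAML1 (0.12 and -0.22), FOXF1 (0.08 and -0.25), MED6 (-0.20 and 0.19), NSMF (0.13 and -0.15), STAR (0.07 and -0.19) and TGFA (0.15 and -0.15). Without LB hens 7, 8 and 16, the difference in compartments of 54 was -0.05 for KLHL7. It was then 0.15 for MED6 (adjusted p = 0.0883) and -0.11 for NSMF (adjusted p = 0.0983), against adjusted p of 0.0242 and 0.0156 with them. All of the 10 but KLHL7 kept their sign there, and each had an adjusted p of 0.435 for the interaction. Each of the 10 was named by a single probe set. Further probe sets of ATP5C1, CHEK1, DSCAML1, MED6, NSMF and SSPO were not among those with the 10 smallest p.

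Of the 15 probe sets of 2-fold or more that were not called in compartments of 54, 12 carried 1 symbol, and 6 of these belonged to the antibody genes. They were grouped in this way after their values were seen. JCHAIN differed by 0.77 ± 0.52 in compartments of 54 (adjusted p = 0.339), and its interaction of 1.35 had an adjusted p of 0.426. The 5 IGLL1 probe sets differed there by 0.09 to 0.19 (adjusted p from 0.761 to 0.894), with unadjusted p for the interaction from 0.00314 to 0.00735 and adjusted p from 0.247 to 0.279. For the probe set of IGLL1 with the largest difference, the medians were 1.52 in LSL and -0.00 in LB in compartments of 36, and 0.90 and 0.53 in compartments of 54. For JCHAIN they were 2.28 and 0.19, and 1.62 and 0.66. JCHAIN lay above 1 in 10 of 13 LSL and 4 of 15 LB hens in compartments of 36, and in 10 of 15 and 6 of 17 in compartments of 54. The narrower difference in compartments of 54 thus came with lower LSL and higher LB medians, and a change with group size did not pass the test.

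LIMS1, an adaptor protein of cell adhesions, and SGK1 were lower in LSL in compartments of 36 but were mostly not called in compartments of 54. LIMS1 was lower in 4 probe sets (-1.29 ± 0.15, -1.02 ± 0.10, -0.92 ± 0.06 and -0.66) and not called in 2. In the one with the largest difference, the LSL hens ran from -2.11 over -1.08 to -0.70 and the LB hens from -0.61 over 0.02 to 0.48, with no overlap. In compartments of 54 the former 3 differed by -0.21 (adjusted p = 0.617), -0.32 (adjusted p = 0.313) and -0.56 (adjusted p = 2.43e-05). LB hens 7, 8 and 16, whose arrays had stood apart in earlier results of these data, were the lowest LB hens there in the probe sets with -0.21 and -0.32, and without them the differences were -0.69 (adjusted p = 8.07e-04), -0.74 (adjusted p = 6.33e-06) and -0.61 (adjusted p = 2.50e-05). SGK1 differed by -0.84 in compartments of 54 (adjusted p = 0.0726) and by -0.95 without these hens (adjusted p = 0.00738). Leaving out the lowest LB hens widens these LIMS1 differences by construction, and LB hen 7 was also the lowest in SGK1, so the values without them are a description only.

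CA5A, a mitochondrial carbonic anhydrase, was the only 1 of the 155 probe sets with opposite signs, at -1.41 ± 0.43 (adjusted p = 0.0341) in compartments of 36 and 0.31 (adjusted p = 0.709) in compartments of 54. Its interaction had an adjusted p of 0.302, and hens of both lines lay at separate levels, with LB hens 3, 11, 18 and 34 at -2.91 to -1.57 and the other LB hens at 0.41 to 1.30. DDTL differed by -1.11 and -0.29, and PPM1K, a phosphatase of branched-chain amino acid breakdown, by -1.27 and -0.78 (adjusted p = 0.495 and 0.0918 in compartments of 54). For CA5A, DDTL and PPM1K these values come from only 1 probe set of each gene. The array holds further probe sets of each, which are not given here.

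**Figure D4:**
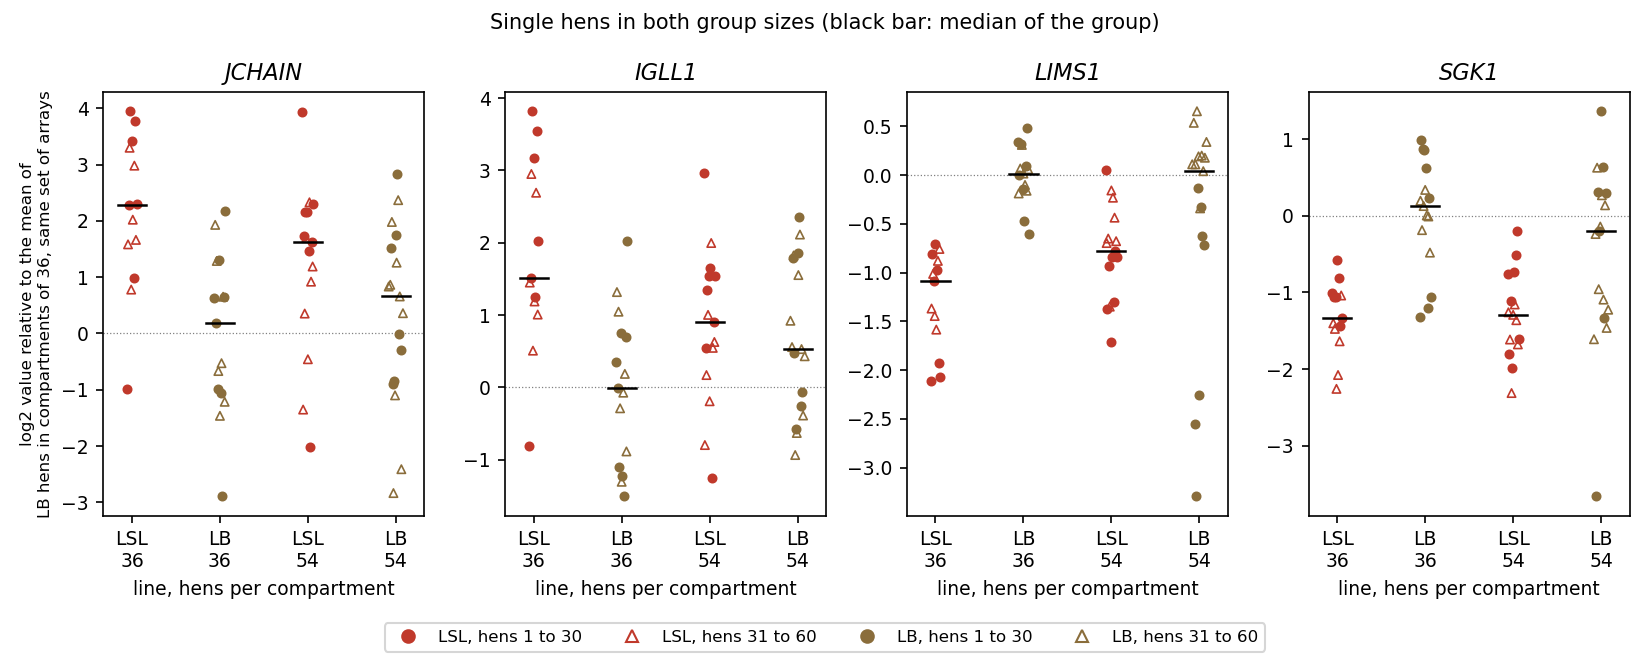
Log2 values of single hens for JCHAIN, IGLL1, LIMS1 and SGK1 (1 probe set each) in the 4 combinations of line and group size, relative to the mean of the LB hens of compartments of 36 in the same set of arrays; filled circles are hens 1 to 30, open triangles are hens 31 to 60, and black bars are medians. The lines overlap in both antibody genes in each group size, and in LIMS1 a group of 3 LB hens of compartments of 54 lies far below the others of its line.

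Some genes with large differences lay close together in the genome. By the gene order of the assembly GRCg7b, 6 of 199 neighbours of the 2-fold genes were 2-fold themselves (3.02 percent), against 0.775 percent of the neighbours of all measured genes. Neighbours of the 2-fold genes were called at any size in 20.6 percent. This share was 20.7 percent for genes called under 2-fold and 17.7 percent for all measured genes. The 6 were the adjacent pairs, each counted from both of its genes. These pairs were MHCY4 (1.27) with BG8 (-2.92), PPP1R3D (1.45) with FAM217B (1.25), and CAMK2D (-1.19) with ANK2 (1.14). ANK2, a membrane adaptor that anchors ion channels, was higher in 3 probe sets (1.14, 1.12 and 0.72) and not called in 6. ABCB1 (-1.88) and SRI (6.02) lay 4 measured genes apart, and SUCLG2 (3.88) and EOGT (-1.15) lay 3 apart. RCSD1, which encodes a protein that binds capping protein, was higher by 1.08 ± 0.16 in 1 probe set and not called in the other (0.05).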

How the data were processed

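Per the labels, RNA from the posterior cerebrum without meninges was hybridised to Affymetrix chicken arrays, 1 per hen. The authors scanned the arrays and deposited log2 values normalised by RMA. Each probe set has a median of 0 within 1e-06 over hens 1 to 30 and over hens 31 to 60, so no filter on low expression could be set and no signal over background is known. The number of arrays limits the precision. The methods filtered probe sets by expression and used an unpaired t-test with Benjamini-Hochberg adjustment.

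All 38535 probe sets were fitted with limma 3.58.1 (R 4.3.3), with line and set of arrays as terms, at an adjusted p threshold of 0.05, and the script was tested on simulated data. Gene names came from GEO's platform annotation, which gave 1 symbol for 27178 probe sets, several for 177 and none for 11180, and 26863 matched the RefSeq table of GRCg7b. Probe sets of several matches may bind near-identical copies.

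The members, gene lists and tests were chosen with earlier results of these data known. Genes were named as the 15 largest rises and 15 largest falls with 1 symbol, up to 12 with the widest gap between the lines, up to 4 called and up to 3 central members of each of 30 lists, genes named in the study's text, and the 10 smallest p for the interaction with group size. LIMS1, CA5A, DDTL, PPM1K and the neighbouring genes were named after their values were seen, and further probe sets stand beside the genes with the largest differences. Alternatives were other tests, sets, sides of the cerebrum and normalisations.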

Additional observations from a re-analysis of the deposited data

Results flagged for a closer look

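In 2 probe sets the line difference in compartments of 36 differed between the sets of arrays. Limma's test of line by set over all probe sets gave an adjusted p of 0.0335 for both. In this test 2006 of 38535 probe sets lay below an unadjusted p of 0.05. That share is close to what the threshold gives on average where no difference exists. TUBD1, which encodes delta-tubulin of the centriole, differed by -0.47 in hens 1 to 30 and by 0.31 in hens 31 to 60, a change of 0.78. Over both sets it was not called (-0.11, adjusted p = 0.581).

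CLASP2, which encodes a protein that stabilises the ends of microtubules, was lower in LSL in both sets, with -0.43 in hens 1 to 30 and -1.40 in hens 31 to 60, a change of -0.97. Over both sets it differed by -0.88 (adjusted p = 5.01e-06), and in compartments of 54 by -0.79 (adjusted p = 7.28e-06). All left-side samples of compartments of 36 (1 LSL and 2 LB hens) lie in hens 31 to 60. With the right side alone, and thus fewer hens, 0 probe sets passed this test. A part of the side was not tested and cannot be told apart from the loss of hens.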

How the results depend on the processing

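Within hens 1 to 30 alone 1170 probe sets were called, and within hens 31 to 60 alone 1160, with fewer hens in each fit than the 3581 of both sets together. The share of calls that were higher in LSL was 35.8 percent in hens 1 to 30 and 49.7 percent in hens 31 to 60, against 41.7 percent in both. All 155 differences of 2-fold or more had the same sign in both sets, and 106 were called in each. The 155 were chosen from the same hens of both sets together, so a shared sign follows largely from that choice and is a description only. The other alternatives gave 3026 calls (right side alone) to 3918 (array weights), with 3358 by the methods' t-test and 3573 without the block for the set. In these other alternatives the counts of 2-fold differences ran from 149 to 158. They were 157 in hens 1 to 30 alone and 115 in hens 31 to 60 alone. When genes were represented by the probe set that varied most among the 28 hens, line difference included, the gene lists kept their counts except calcium (2 higher, 5 lower), potassium channels (2 and 1), endosomes (3 and 4) and detoxification (8 and 2). The alternatives use the same 28 hens, a part of them, or all hens of the series including them. Most named probe sets were chosen from these hens, so a kept direction is a description only. No named probe set that was called, in the main fit or in an alternative, changed its direction. Where neither fit called a probe set, the sign could change, as in SGK1 (-0.05, and 0.07 in hens 31 to 60 alone). The difference between group sizes called 0 probe sets in each of its 7 alternatives, with a smallest adjusted p from 0.109 to 0.435 and 3456 to 4952 probe sets below an unadjusted p of 0.05. The difference between sets of arrays called 0 probe sets with the right side alone and 2 in its other alternatives.

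Alternatives chosen after seeing the data left out the hen farthest from its line, LSL hen 1 (3503 calls) or LB hen 54 (3459 calls). Without LSL hen 1 the adjusted p rose to 0.0626 for RSPH1, 0.0663 for CSNK1E, 0.0703 for GRM5, 0.0811 for IRF7, 0.0535 for NEFM and 0.0624 for SV2B, and without LB hen 54 to 0.0622 for RSPH1, 0.0566 for CSNK1E, 0.0610 for GRM5 and 0.0724 for IRF7. Outside the fits of 1 set, calls were lost in at least 1 alternative for RSPH1, CSNK1E, GRM5, DNAJB9, IRF7, NEFM, SV2B, SQLE, DNAJB6, UPP1 and ERAP1 and gained for TGFA, NSMF and MED6. No paired analysis was possible because the labels give every hen a number of its own.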
